A study of Mus musculus with 9 samples.

Results

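The genes described here are the ligands, receptors, SMAD proteins, ID proteins and antagonists of the bone morphogenetic protein (BMP) and transforming growth factor beta (TGF-beta) family. They were taken by symbol: every gene whose name is that of a BMP, growth differentiation factor (Gdf), TGF-beta, inhibin beta subunit, activin or BMP receptor, SMAD, ID protein, latent TGF-beta binding protein (Ltbp), gremlin, noggin, chordin, follistatin, Bambi or SMURF gene, read from probe sets that name a single gene. The rule found 68 genes of the 22180 genes compared, measured by 69 probe sets, and it used no measured value. Gdf5 has 2 probe sets, which were averaged, and the other 67 genes have 1 each. The rule also takes in genes that carry the family name without being ligands or receptors: Bmp1 is a protease, and Bmp2k is a kinase named for its induction by BMP2. Gdf1 and Gdf15 were not analysed here as single genes.

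Total RNA was measured on 9 biotin-labelled expression arrays in MSC2, a stromal cell line grown from the bone marrow of C57BL/6 mice aged 6 weeks. All groups come from this line, which is 1 clone, so it stands for no population of marrow cells. The 3 groups, of 3 arrays each, are cells kept undifferentiated, cells driven toward osteoblasts for 14 days and the same for 28 days, and the series calls the 3 of a group independent replicates without saying whether they were separate cultures, so p-values measure only the spread between these samples. Undifferentiated cells were kept in alpha-MEM that lacks ascorbic acid, with 10% serum qualified for stromal cells. Induced cells started confluent and were held in DMEM with 10% serum, 1 mM pyruvate, 0.1 µM dexamethasone (a synthetic glucocorticoid), 0.2 mM ascorbate phosphate and 10 mM beta-glycerophosphate, the last 2 being the cofactor and phosphate source for mineralised matrix. No uninduced culture of the same age or medium is among the samples, so induction, medium, confluence and time in culture cannot be told apart. Per the labels, RNA integrity numbers averaged 9.9.

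As background, BMPs, activins and TGF-betas are secreted dimers that bring together a type II and a type I receptor kinase. The type I receptor phosphorylates receptor-regulated SMADs: Smad1, Smad5 and Smad9 for BMPs, Smad2 and Smad3 for activins and TGF-betas. These join Smad4 and act on genes in the nucleus. Smad6, Smad7 and the Id genes are widely used readouts of the pathway, and the inhibitory SMADs close a negative feedback loop. Outside the cell, noggin, chordin, gremlins and follistatins trap ligands, and latent TGF-beta binding proteins hold TGF-beta in the matrix in an inactive form. In the osteoblast lineage, BMPs drive commitment and TGF-beta stored in bone matrix is released during remodelling.

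The values are log2 signals, each centred on that probe set's median over the 9 arrays. They compare groups and hold no level of a gene, so no gene can be ranked above another. Because 6 of the 9 arrays are of induced cells, induced arrays lie near 0 and a changed gene shows as a high or low value in undifferentiated cells. Groups were compared with limma, and a gene was called where its p, adjusted over all 22180 genes by the Benjamini-Hochberg method, was under 0.05. "Rose" and "fell" are written of called genes only.

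After 14 days, 34 of the 68 genes were called against undifferentiated cells, 16 higher and 18 lower. Among all genes 35.7% were called, 18.2% higher and 17.5% lower. After 28 days 37 were called, 20 higher and 17 lower, against 39.9% of all genes, of which 20.4% were higher and 19.5% lower. The shares of the family were 50.0% after 14 days and 54.4% after 28 days. These comparisons share their undifferentiated arrays. The median log2 change of the family was 0.029 after 14 days and 0.016 after 28 days, against 0.005 and 0.017 over all genes, so the family as a whole did not lean to either side. Changes of at least 2-fold were found in 6 family genes after 14 days, against 4.71% of all genes, and in 8 after 28 days, against 6.19% of all genes. An F test over the 3 groups called 37 of the 68 genes, against 39.2% of all genes.

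Most called genes had moved by 14 days. Of the 68 genes, 17 fell and 15 rose in both comparisons with undifferentiated cells. Both comparisons use the same undifferentiated arrays, and the share of all genes called in both was not counted. Agreement between the times is therefore not shown to be particular to the family. Another 5 were called as higher after 28 days and not after 14 days, and of these only Id2 was also called between the times. Gdf6 and Fstl4 were called after 14 days and not after 28 days. The groups did not overlap in 41 genes after 14 days, against 44.8% of all genes, and in 40 after 28 days, against 46.6% of all genes. In 29 genes no comparison was called, and the share of all genes with no call was not counted. The SD over 3 arrays of a group had a median of 0.053 in undifferentiated cells, 0.05 after 14 days and 0.056 after 28 days across the family, so arrays of a group lay close together. In a bulk RNA sample, fewer cells of a type and less RNA per cell cannot be told apart, and this holds for every result that follows.

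**Figure D1:**
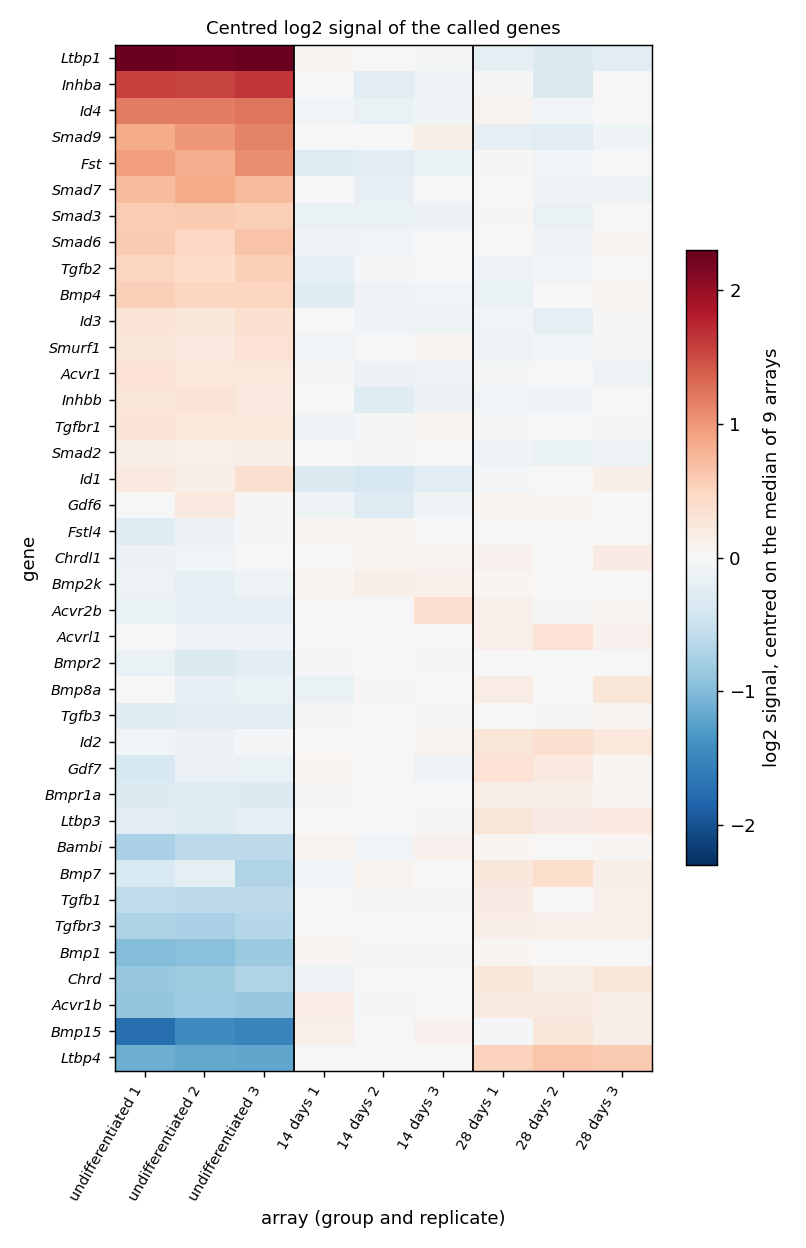
Centred log2 signal (colour) of the 39 family genes called in at least 1 comparison (rows) on each of the 9 arrays (columns), ordered by the change after 28 days. Ltbp1, Inhba and Id4 stand at the top, high in the 3 undifferentiated arrays, and Ltbp4, Bmp15 and Acvr1b at the bottom, low in them.

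Some marker genes of other states moved with induction too, and their part in the results below was not tested. Their counts stand against 35.7% of all genes called after 14 days and 39.9% after 28 days. All 5 measured markers of dividing cells fell at both times, and their mean centred signal per array lay between 2.07 and 2.11 in undifferentiated cells, between -0.04 and 0.02 after 14 days and between -1.0 and -0.91 after 28 days. Of 5 smooth muscle markers 4 fell and Myh11 rose at both times, with array means of 0.93 to 0.97 in undifferentiated cells, -0.02 to -0.01 after 14 days and -0.14 to -0.12 after 28 days. Of 8 osteoblast markers 3 rose (Alpl, Pth1r and Omd) and Col1a1 fell at both times, while Sp7, Bglap, Ibsp and Dmp1 were not called. Of 6 macrophage markers Csf1r, Cd68 and Cd14 rose and Ptprc, Adgre1 and Itgam were not called, with array means of -0.83 to -0.7 in undifferentiated cells, -0.05 to 0.03 after 14 days and 0.11 to 0.18 after 28 days. Of 6 endothelial markers 4 rose after 14 days and 5 after 28 days, with array means of -0.68 to -0.61, 0.03 to 0.13 and 0.03 to 0.1 in the same order. Of 9 stromal markers 3 rose (Pdgfra, Nt5e and Vcam1) and 2 fell (Cd44 and Cxcl12) at both times. Pdgfrb was called as higher after 14 days and not after 28 days, and Thy1 after 28 days and not after 14 days. Of 6 adipocyte markers 2 rose at both times, and of 5 chondrocyte markers 2 rose after 14 days and 3 after 28 days. Since the values are centred, whether a marker is absent from the line cannot be read from them.

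Among the BMP ligands, Bmp15, Bmp7 and Bmp4 changed at both times, with Bmp4 in the opposite direction to the others. Bmp15, a ligand known from the oocyte, had the largest change of the 10 BMP ligand genes. Its centred log2 signal was -1.74, -1.44 and -1.52 in undifferentiated cells, 0.11, 0.00 and 0.09 after 14 days, and -0.05, 0.26 and 0.13 after 28 days. All 6 induced arrays were above all 3 undifferentiated ones. Bmp15 rose by 1.63 (SE 0.091, adjusted p = 1.98e-07) on the log2 scale after 14 days, 3.1-fold, and 1.68 (SE 0.091, adjusted p = 1.24e-07) after 28 days, 3.19-fold. Whether Bmp15 is well expressed in either state cannot be read from centred values.

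Bmp4, an osteogenic ligand of mesenchyme, fell. Its signal was 0.55, 0.49 and 0.50 in undifferentiated cells, -0.27, -0.08 and -0.07 after 14 days, and -0.16, 0.00 and 0.06 after 28 days. The groups with and without induction did not overlap. Its log2 change was -0.66 (SE 0.069, adjusted p = 2.43e-05) after 14 days and -0.55 (SE 0.069, adjusted p = 8.36e-05) after 28 days. Bmp7, another osteogenic ligand and one of kidney and eye development, rose by 0.43 (SE 0.110, adjusted p = 0.0103) and 0.69 (adjusted p = 0.000457) on the log2 scale after 14 and 28 days. Its undifferentiated arrays had the widest SD of the family, 0.243, at -0.35, -0.23 and -0.69.

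Bmp8a was called after 28 days with 0.26 (adjusted p = 0.0244), a call that rested on single arrays. Without undifferentiated array 2 or 3, or 28-day array 1 or 3, its adjusted p was 0.0865, 0.0771, 0.0716 and 0.0906. Bmp2 and Bmp6, both osteogenic, were not called. The log2 change of Bmp2 was -0.01 (95% interval -0.15 to 0.14) after 14 days and 0.06 (-0.09 to 0.20) after 28 days. That of Bmp6 was 0.06 (-0.05 to 0.16) and 0.10 (0.00 to 0.21). Bmp3, Bmp5, Bmp8b and Bmp10 were not called either. Bmp1, the protease that trims procollagen and cleaves chordin, rose by 0.96 at both times (SE 0.047, adjusted p = 7.43e-08 after 14 days and 5.96e-08 after 28 days), a 1.95-fold and 1.94-fold change. The undifferentiated arrays of Bmp1 stood between -1.0 and -0.86, and the induced ones between -0.03 and 0.07.

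Of the 8 Gdf ligands, 6 were called at neither time. Gdf7, with roles in tendon and spinal cord, rose after 28 days by 0.43 (SE 0.085, adjusted p = 0.00206), with 0.34, 0.22 and 0.05 after 28 days against -0.37, -0.14 and -0.15 in undifferentiated cells. Its change after 14 days was 0.20 (adjusted p = 0.0929). Gdf6, a joint and skull ligand, had a log2 change of -0.24 (adjusted p = 0.0228) after 14 days and -0.05 (adjusted p = 0.623) after 28 days. Without undifferentiated array 2 its adjusted p after 14 days was 0.0813, and without 14-day array 2 it was 0.0894. Gdf2, Gdf3, Gdf5, Gdf9, Gdf10 and Gdf11 had no call.

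The 3 TGF-beta ligands changed in different directions at both times. Tgfb1, the TGF-beta most abundant in bone matrix, was at -0.59, -0.60 and -0.60 in undifferentiated cells, 0.00, -0.04 and 0.03 after 14 days, and 0.19, 0.01 and 0.12 after 28 days. It rose by 0.59 (SE 0.049, adjusted p = 3.92e-06) after 14 days and 0.70 (adjusted p = 8.54e-07) after 28 days, 1.51-fold and 1.63-fold, with no overlap. Tgfb3 rose by 0.26 (adjusted p = 0.000317) and 0.29 (adjusted p = 0.000127). Tgfb2 was at 0.50, 0.43 and 0.54 in undifferentiated cells and between -0.18 and 0.01 on the induced arrays. It fell by 0.56 (adjusted p = 2.57e-05) after 14 days and 0.55 (adjusted p = 2.34e-05) after 28 days on the log2 scale.

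Activin subunits fell. Inhba encodes the beta A subunit, which makes activin A as a homodimer and inhibin A with the alpha subunit. Its signal was 1.57, 1.55 and 1.65 in undifferentiated cells, 0.01, -0.24 and -0.11 after 14 days, and -0.04, -0.33 and 0.00 after 28 days. All undifferentiated arrays were above all induced ones, by more than 1 log2 unit. The log2 change was -1.70 (SE 0.089, adjusted p = 1.25e-07) after 14 days and -1.71 (SE 0.089, adjusted p = 9.11e-08) after 28 days, 3.25-fold and 3.27-fold lower. Inhbb, the beta B subunit, fell by 0.40 (adjusted p = 0.000549) and 0.31 (adjusted p = 0.00235). Inhbc and Inhbe, subunits best known from liver, were not called.

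The type I receptors were split. Acvr1b, a type I receptor for activin, was at -0.89, -0.84 and -0.88 in undifferentiated cells, 0.17, -0.04 and 0.00 after 14 days, and 0.21, 0.20 and 0.15 after 28 days. Induced arrays were all higher, and the 14-day and 28-day arrays overlapped. Acvr1b rose by 0.91 (SE 0.055, adjusted p = 3.34e-07) after 14 days and 1.06 (SE 0.055, adjusted p = 8.47e-08) after 28 days, 1.88-fold and 2.08-fold. Acvrl1, an endothelial receptor whose gene is next to Acvr1b with no protein-coding gene between them on chromosome 15, had a change of 0.06 (adjusted p = 0.571) after 14 days and rose by 0.24 (adjusted p = 0.0135) after 28 days. Bmpr1a, the broadly expressed BMP receptor, rose by 0.32 (SE 0.041, adjusted p = 0.000116) and 0.43 (adjusted p = 9.08e-06).

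Tgfbr1, the TGF-beta type I receptor, fell by 0.29 (SE 0.044, adjusted p = 0.000388) and 0.30 (adjusted p = 0.000278) on the log2 scale. Acvr1, the BMP receptor mutated in fibrodysplasia ossificans progressiva in humans, fell by 0.35 (adjusted p = 0.000376) and 0.33 (adjusted p = 0.00056). Bmpr1b and Acvr1c were not called. Acvr1c lies next to Acvr1 on chromosome 2, and its log2 changes were 0.01 and -0.01. Thus receptors of both branches stood on both sides: Bmpr1a and Acvr1b rose, and Acvr1 and Tgfbr1 fell.

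Type II and type III receptors that were called rose. Bmpr2, the BMP type II receptor, rose by 0.25 at both times (SE 0.047, adjusted p = 0.00173 after 14 days and 0.00144 after 28 days). Acvr2b, an activin type II receptor, was called with 0.30 (adjusted p = 0.0186) and 0.24 (adjusted p = 0.0486). The 14-day call of Acvr2b was lost without undifferentiated array 2 (adjusted p = 0.0575) or 3 (adjusted p = 0.0527), and the 28-day call without any of the 6 arrays it compares, with adjusted p between 0.0771 and 0.14. Acvr2a was not called, and Tgfbr2, the TGF-beta type II receptor, had changes of 0.10 (95% interval 0.01 to 0.19, adjusted p = 0.0843) and 0.05 (-0.04 to 0.14). Tgfbr3, or betaglycan, which presents TGF-beta2 to its receptor and helps inhibin block activin, rose by 0.70 (SE 0.040, adjusted p = 2.22e-07) and 0.84 (adjusted p = 4.4e-08). Its undifferentiated arrays lay between -0.75 and -0.65 and its 28-day arrays between 0.12 and 0.15.

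**Figure D2:**
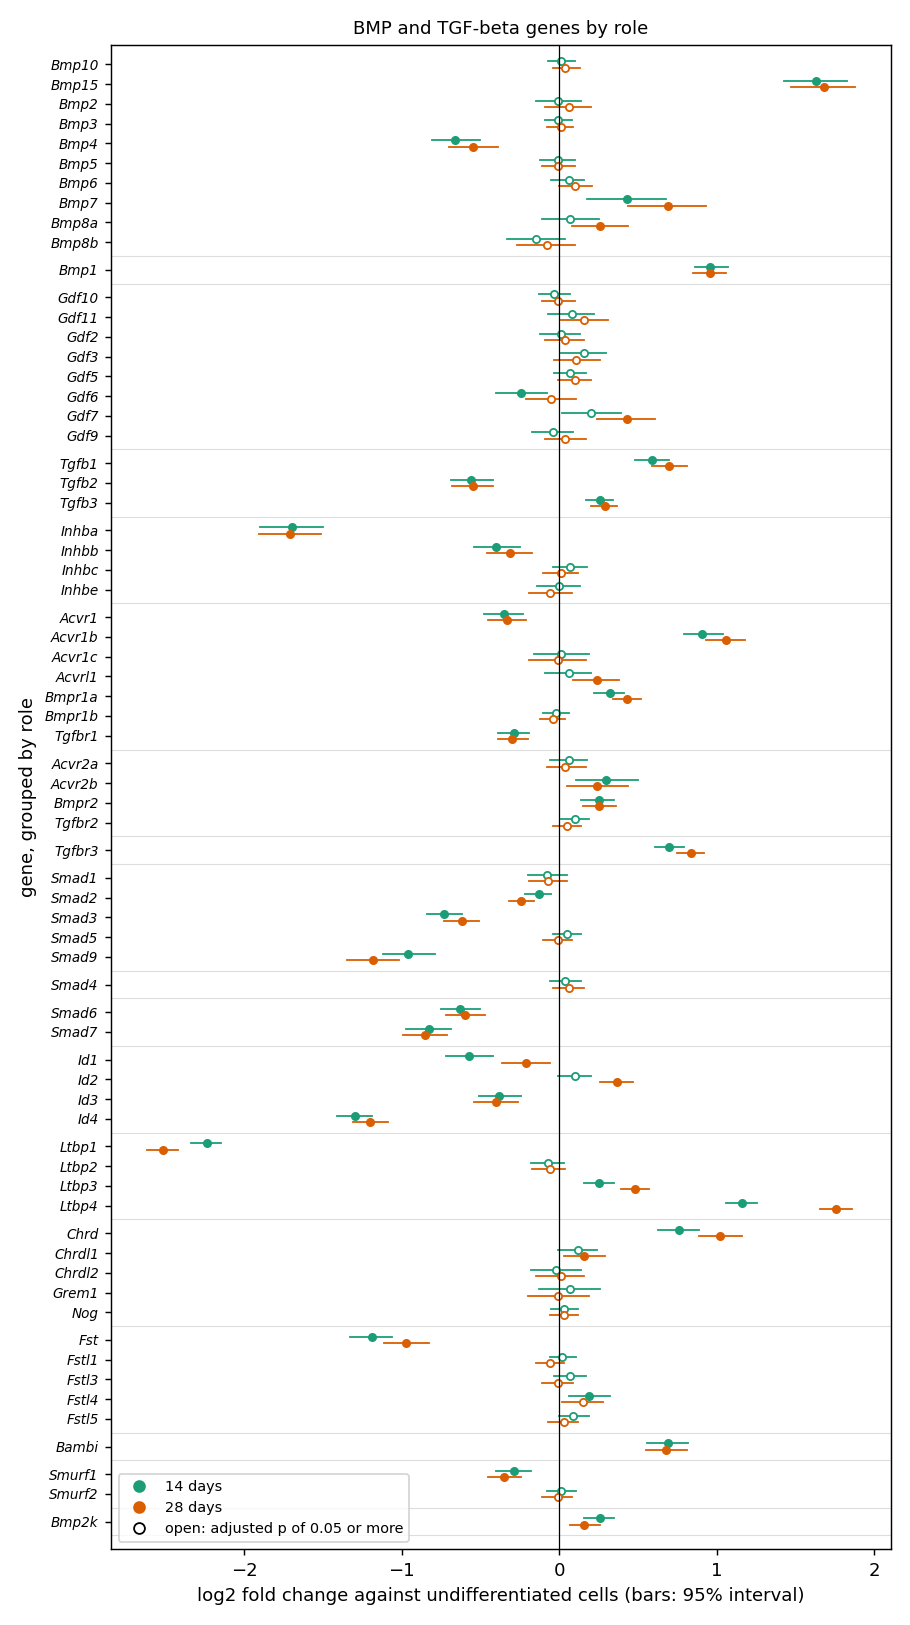
Log2 fold change of each of the 68 genes against undifferentiated cells after 14 days (green) and 28 days (orange), with 95% intervals, grouped by role with ligands at the top. Filled points were called; Smad3, Smad9, Smad6, Smad7, Id3 and Id4 lie left of 0 with both points filled, and Ltbp1 and Ltbp4 lie furthest apart within a role.

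Every SMAD gene that was called fell, and SMADs were called in both branches. Smad9, a BMP SMAD, had the largest fall. Its signal was 0.86, 0.99 and 1.14 in undifferentiated cells, 0.00, 0.00 and 0.13 after 14 days, and -0.22, -0.24 and -0.09 after 28 days. The 3 groups did not overlap. The log2 change was -0.96 (SE 0.074, adjusted p = 2.35e-06) after 14 days and -1.18 (SE 0.074, adjusted p = 3.72e-07) after 28 days, 1.94-fold and 2.27-fold lower, and between 14 and 28 days it was -0.23 (adjusted p = 0.112). The other BMP SMADs were not called: Smad1 had changes of -0.08 (95% interval -0.20 to 0.05) and -0.07 (-0.19 to 0.05), and Smad5 of 0.05 (-0.04 to 0.14) and -0.01 (-0.10 to 0.08).

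Smad3, which carries TGF-beta and activin signals, was at 0.58, 0.60 and 0.55 in undifferentiated cells, -0.16, -0.15 and -0.14 after 14 days, and 0.03, -0.15 and 0.00 after 28 days. It fell by 0.73 (SE 0.050, adjusted p = 8.95e-07) and 0.62 (adjusted p = 2.57e-06) on the log2 scale, 1.66-fold and 1.54-fold. Its partner Smad2 fell by 0.13 (SE 0.037, adjusted p = 0.0145) and 0.24 (adjusted p = 0.000329). The 14-day call of Smad2 was lost without 14-day array 2 (adjusted p = 0.0525). Smad4, the shared SMAD of both branches, was not called, with changes of 0.04 (95% interval -0.06 to 0.14) and 0.06 (-0.04 to 0.16).

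Both inhibitory SMADs fell. Smad6, which acts mainly on BMP receptors, was at 0.61, 0.47 and 0.66 in undifferentiated cells and between -0.08 and 0.04 on the induced arrays. It fell by 0.63 (SE 0.057, adjusted p = 7.82e-06) after 14 days and 0.60 (adjusted p = 9.48e-06) after 28 days. Smad7, which acts on the receptors of both branches, fell by 0.83 (SE 0.064, adjusted p = 2.13e-06) and 0.85 (adjusted p = 1.44e-06), 1.78-fold and 1.8-fold, with 0.73, 0.86 and 0.73 in undifferentiated cells. Smad6 and Smad3 are neighbours on chromosome 9 with no protein-coding gene between them, and Smad7 and Smad2 lie on chromosome 18 with 2 between them, so these 4 genes make 2 places in the genome.

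The Id genes encode helix-loop-helix proteins that bind and block basic helix-loop-helix factors, and BMP SMADs act on them directly. The 4 members did not move alike. Id4 was at 1.19, 1.18 and 1.23 in undifferentiated cells, -0.06, -0.16 and -0.09 after 14 days, and 0.08, -0.07 and 0.00 after 28 days. All undifferentiated arrays stood more than 1 log2 unit above the induced ones. It fell by 1.30 (SE 0.049, adjusted p = 1.18e-08) and 1.20 (SE 0.049, adjusted p = 1.48e-08) on the log2 scale, 2.46-fold and 2.29-fold. Id3 fell by 0.38 (SE 0.061, adjusted p = 0.000563) and 0.40 (adjusted p = 0.000329).

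Id1, the most used BMP readout, was at 0.23, 0.15 and 0.37 in undifferentiated cells, -0.33, -0.39 and -0.25 after 14 days, and -0.02, 0.00 and 0.14 after 28 days. The 14-day arrays were the lowest and the 28-day arrays lay between the other groups. Id1 fell by 0.57 (SE 0.067, adjusted p = 5.51e-05) after 14 days. After 28 days its log2 change was -0.21 (adjusted p = 0.032), and it rose by 0.37 (adjusted p = 0.00879) between 14 and 28 days. The call after 28 days was lost without undifferentiated array 1 or 3, with adjusted p of 0.0586 and 0.114, and without 28-day array 1 or 2, with 0.105 and 0.0982.

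Id2 went the other way. It was at -0.07, -0.13 and -0.02 in undifferentiated cells, 0.00, -0.01 and 0.07 after 14 days, and 0.28, 0.36 and 0.24 after 28 days. The 28-day arrays were above all others, and the 14-day arrays lay just above the undifferentiated ones. Its log2 change was 0.10 (SE 0.048, adjusted p = 0.169) after 14 days and 0.37 (adjusted p = 0.000106) after 28 days, and it rose by 0.27 (adjusted p = 0.00702) between 14 and 28 days. Id1 and Id2 were thus the only Id genes called between 14 and 28 days, both higher after 28 days.

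The start regions of these feedback and target genes are shown because SMADs bind short motifs that their letters can be read for. Promoter windows of 300 bases around annotated starts (250 before and 50 after) were taken from RefSeq for assembly GRCm38.p6 and searched on both strands for GGCGCC (a GC-rich site bound by BMP SMADs), GTCTAGAC (the SMAD palindrome) and CAGAC (the SMAD box). None of the 3 motifs contains another, although neighbouring matches could share bases. Windows were found for 48 of the 68 genes, 58 windows in all, and Id1 had none in the table used here. The sequences below run 5′ to 3′ on the gene's strand, from 250 bases before to 30 bases after the start, with matches in capitals. Id2 lies at chr12:25096063-25096342 on the minus strand, Id3 at chr4:136143572-136143851 on the plus strand, Id4 at chr13:48260866-48261145 on the plus strand and Smad6 at chr9:64022030-64022309 on the minus strand.
Id2: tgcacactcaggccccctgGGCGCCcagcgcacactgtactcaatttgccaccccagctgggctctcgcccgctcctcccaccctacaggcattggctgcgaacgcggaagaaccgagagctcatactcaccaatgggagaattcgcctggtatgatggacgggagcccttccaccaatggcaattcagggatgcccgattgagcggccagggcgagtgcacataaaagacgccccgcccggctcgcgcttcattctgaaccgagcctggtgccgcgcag
Id3: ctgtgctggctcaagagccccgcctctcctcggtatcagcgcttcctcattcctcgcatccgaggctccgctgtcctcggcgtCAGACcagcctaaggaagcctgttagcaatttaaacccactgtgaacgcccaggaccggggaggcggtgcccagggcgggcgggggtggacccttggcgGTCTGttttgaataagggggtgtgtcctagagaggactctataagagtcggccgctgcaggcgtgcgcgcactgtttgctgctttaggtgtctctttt
Id4: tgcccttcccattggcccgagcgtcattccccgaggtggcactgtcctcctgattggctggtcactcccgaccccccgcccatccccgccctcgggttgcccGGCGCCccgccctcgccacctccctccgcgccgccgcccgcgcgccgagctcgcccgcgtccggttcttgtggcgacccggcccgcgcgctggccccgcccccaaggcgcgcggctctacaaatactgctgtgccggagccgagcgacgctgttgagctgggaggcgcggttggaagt
Smad6: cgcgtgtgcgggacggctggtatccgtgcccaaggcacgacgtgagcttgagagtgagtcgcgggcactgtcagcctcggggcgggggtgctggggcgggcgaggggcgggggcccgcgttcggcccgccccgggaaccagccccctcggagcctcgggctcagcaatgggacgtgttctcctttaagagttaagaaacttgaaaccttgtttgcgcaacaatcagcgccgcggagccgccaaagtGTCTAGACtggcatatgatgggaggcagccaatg
Id2, which rose, and Id4, which fell, each hold 1 GGCGCC, Id3 holds 2 CAGAC and no GGCGCC, and Smad6 holds 1 GTCTAGAC. A match is a description of letters, not a bound site.

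Across all 32851 windows of the table, 11.866% held GGCGCC, 0.213% GTCTAGAC and 49.594% CAGAC. Of the 58 family windows, 16 (27.6%) held GGCGCC, 1 (that of Smad6) held GTCTAGAC and 28 (48.3%) held CAGAC. The site GGCGCC was found in 7 of 12 windows of genes that rose at both times, in 3 of 15 windows of genes that fell at both times and in 5 of 27 windows of genes called at neither. CAGAC stood in 3 of 12, 6 of 15 and 17 of 27 windows in the same order. Some genes have several windows. The overlapping windows of Ltbp4, which share 285 bases, both held GGCGCC, as did those of Smad5, which share 258. A further window of each of these genes held none. Counted once per gene, GGCGCC was in 6 of 10 genes that rose, 3 of 13 that fell and 4 of 21 called at neither, and CAGAC in 3, 5 and 15 of them. The windows of genes that rose were also richer in G and C, with a median of 77.6%, against 64.3% in those that fell, 63.0% in those not called and 52.7% over all windows, and GGCGCC consists of G and C alone. The part of base composition in these shares was not tested.

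The latent TGF-beta binding proteins held both the largest fall and the largest rise of the family after 28 days. They tie the latent complex to the extracellular matrix. Ltbp1 was at 2.25, 2.23 and 2.27 in undifferentiated cells, 0.05, 0.00 and -0.04 after 14 days, and -0.23, -0.32 and -0.26 after 28 days. The 3 groups did not overlap. The log2 change was -2.24 (SE 0.043, adjusted p = 1.52e-10) after 14 days and -2.52 (SE 0.043, adjusted p = 3.73e-11) after 28 days, 4.74-fold and 5.74-fold lower, and between 14 and 28 days Ltbp1 fell by a further 0.28 (adjusted p = 0.00338).

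Ltbp4, which is needed for elastic fibres in lung and skin, was at -1.12, -1.18 and -1.20 in undifferentiated cells, -0.01, 0.00 and 0.00 after 14 days, and 0.53, 0.64 and 0.61 after 28 days. The groups stood apart in steps. Ltbp4 rose by 1.16 (SE 0.044, adjusted p = 1.09e-08) after 14 days and 1.76 (SE 0.044, adjusted p = 3.69e-10) after 28 days, 2.24-fold and 3.39-fold, and between 14 and 28 days it was 0.60 (adjusted p = 3.48e-05), the largest of the family in that comparison. Ltbp3, whose loss in mice gives skeletal defects, was at -0.24, -0.30 and -0.21 in undifferentiated cells, 0.00, 0.00 and 0.02 after 14 days, and 0.28, 0.19 and 0.23 after 28 days. Its groups were also in steps without overlap, with 0.25 (SE 0.041, adjusted p = 0.000606) after 14 days, 0.48 (adjusted p = 4.22e-06) after 28 days and 0.23 (adjusted p = 0.00837) between them. Ltbp2, the member that binds no latent TGF-beta, was not called.

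**Figure D3:**
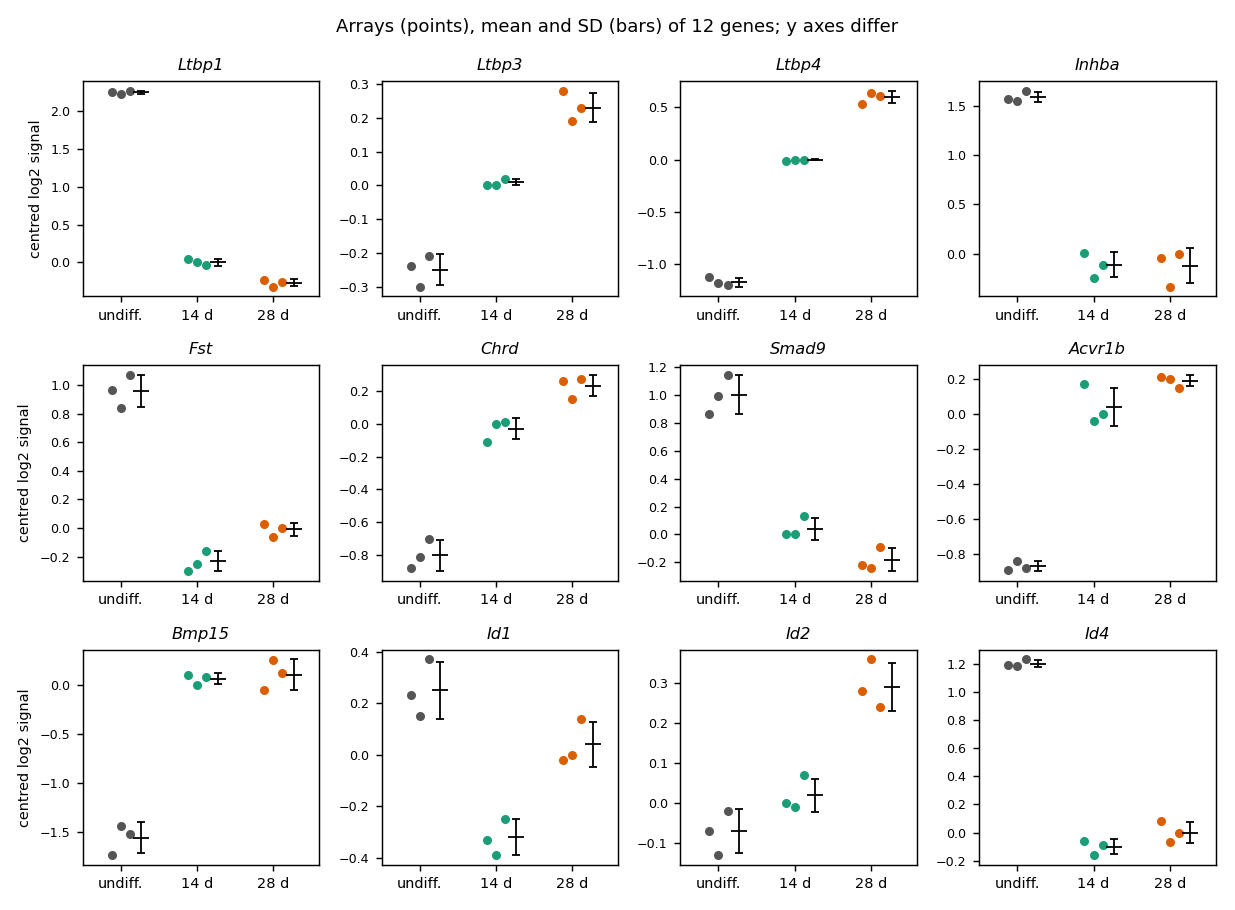
Centred log2 signal (y axes, which differ by panel) of the 12 family genes that changed at least 2-fold or were called between 14 and 28 days, on each array (points) with the mean and SD of 3 arrays beside them, in undifferentiated cells, after 14 days and after 28 days. Ltbp3 and Ltbp4 stand higher and Ltbp1 lower at each stage, and the 14-day arrays of Id1 and Fst are the lowest.

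Among the extracellular BMP antagonists, chordin rose and noggin and gremlin did not pass the test. Chrd, which traps BMPs until it is cleaved by Bmp1-type proteases, was at -0.88, -0.81 and -0.70 in undifferentiated cells, -0.11, 0.00 and 0.01 after 14 days, and 0.26, 0.15 and 0.27 after 28 days. The 3 groups did not overlap. It rose by 0.76 (SE 0.060, adjusted p = 2.46e-06) after 14 days and 1.02 (SE 0.060, adjusted p = 2.03e-07) after 28 days, 1.7-fold and 2.03-fold. Between 14 and 28 days it rose by 0.26 (adjusted p = 0.0265), a call lost without any 1 of the 14-day arrays or without 28-day array 1 or 3, with adjusted p between 0.0552 and 0.106.

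Nog, the classical BMP trap, had changes of 0.03 (95% interval -0.05 to 0.12) and 0.03 (-0.06 to 0.12). Grem1 had changes of 0.07 (-0.13 to 0.26) and -0.01 (-0.20 to 0.19). Chrdl2 was not called. Chrdl1 was called after 28 days with 0.16 (adjusted p = 0.0473), and the call was lost on leaving out any 1 of 7 arrays: undifferentiated 1 or 2, any at 14 days, or 28-day 1 or 3, with adjusted p between 0.0557 and 0.157.

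In the follistatin family the founding member fell. Fst, which binds activin, was at 0.97, 0.84 and 1.07 in undifferentiated cells, -0.30, -0.25 and -0.16 after 14 days, and 0.03, -0.06 and 0.00 after 28 days. All undifferentiated arrays were the highest and the 14-day arrays the lowest, as for Id1. It fell by 1.19 (SE 0.062, adjusted p = 1.12e-07) after 14 days and 0.97 (SE 0.062, adjusted p = 4.09e-07) after 28 days on the log2 scale, 2.29-fold and 1.96-fold, and its change between 14 and 28 days was 0.22 (adjusted p = 0.0635). Fst and its ligand subunit gene Inhba thus both fell. Fstl4 was called after 14 days with 0.19 (adjusted p = 0.0259), and the call was lost without undifferentiated array 1 or 2 or 14-day array 1 or 2, with adjusted p between 0.0566 and 0.0861. Fstl1, Fstl3 and Fstl5 were not called.

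The last family genes act at or under the receptors. Bambi, a pseudoreceptor that lacks the kinase domain, was at -0.75, -0.61 and -0.60 in undifferentiated cells and between -0.06 and 0.09 on the induced arrays. It rose by 0.69 (SE 0.057, adjusted p = 4.09e-06) and 0.68 (adjusted p = 3.6e-06), 1.61-fold and 1.6-fold. Smurf1, a ubiquitin ligase that marks SMADs and receptors for breakdown, fell by 0.29 (adjusted p = 0.000698) and 0.35 (adjusted p = 0.000168), and Smurf2 was not called. Bmp2k rose by 0.26 (adjusted p = 0.000762) and 0.16 (adjusted p = 0.0109).

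Between 14 and 28 days 6 of the 68 genes were called, against 7.39% of all genes: Ltbp3, Ltbp4, Chrd, Id1 and Id2 rose and Ltbp1 fell, with the values given above. Over all genes 2.72% were higher and 4.67% lower. None of the 6 reached 2-fold, against 0.108% of all genes. Groups did not overlap in 20 family genes, against 24.4% of all genes.

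For the 29 genes with no call, the 95% intervals bound what was missed. They ran from -0.33 (Bmp8b) to 0.30 (Gdf3) after 14 days, from -0.27 (Bmp8b) to 0.31 (Gdf11) after 28 days and from -0.26 (Grem1) to 0.24 (Bmp8b) between the times, on the log2 scale. These genes hold 14 ligand and subunit genes, Acvr1c, Bmpr1b, Acvr2a, Tgfbr2, Smad1, Smad4, Smad5, Ltbp2, Chrdl2, Grem1, Nog, Fstl1, Fstl3, Fstl5 and Smurf2. A gene that the line does not express would look the same in centred values.

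Genes of the pathway outside the family names were read from the same fit. Of 75 such genes 36 were called after 14 days, 19 higher and 17 lower, and 47 after 28 days, 26 higher and 21 lower, against the 35.7% and 39.9% of all genes. Of all genes 18.2% were higher and 17.5% lower after 14 days, and 20.4% and 19.5% after 28 days. The counts of single lists below are to be read against the same shares. Between 14 and 28 days 13 were called, 8 higher and 5 lower, against 7.39% of all genes, 2.72% higher and 4.67% lower. The lists held 80 genes, and those beyond the 75 were not analysed here.

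Genes that bind or present ligands held the largest rises. Aspn, or asporin, a small matrix proteoglycan that binds TGF-beta and BMP2, rose by 4.26 (SE 0.043, adjusted p = 5.24e-12) and 4.46 (adjusted p = 5.38e-12) on the log2 scale, 19.2-fold after 14 days. Dcn, or decorin, rose by 0.87 and 0.97, Fmod rose after 28 days by 0.59, and Bgn was not called, so 2 of 4 ligand-binding proteoglycans rose after 14 days and 3 after 28 days. Of 5 genes listed as co-receptors 3 rose at both times, although 1 of these, Amhr2, is itself a type II receptor, that of anti-Müllerian hormone. Amhr2 rose by 2.91 (SE 0.141, adjusted p = 6.61e-08) and 3.40 (adjusted p = 1.51e-08), Rgmb by 0.35 and 0.50, and Neo1 by 0.21 and 0.38. Eng and Hjv were not called. Of 7 other ligands and co-ligands, Lefty1 rose by 0.44 and Inha by 0.20 after 28 days, and Mstn, Nodal, Lefty2, Amh and Tdgf1 were not called.

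Of 13 genes of TGF-beta latency and activation, 5 rose and 3 fell after 14 days, and 6 rose and 3 fell after 28 days. Among all genes 35.7% and 39.9% were called at these times. Itgb8, the integrin chain that releases TGF-beta from its latent complex, rose by 1.95 (SE 0.043, adjusted p = 3.25e-10) and 2.20 (adjusted p = 7.99e-11). Lrrc32, which holds latent TGF-beta on the cell surface, rose by 0.37 and 0.58. Fbn2, a fibrillin, fell by 1.06 (SE 0.047, adjusted p = 3.84e-08) and 1.83 (adjusted p = 4.92e-10). Itgav and Thbs1 of this list also fell, with log2 changes of -0.32 and -0.30 for Itgav and -0.23 and -0.18 for Thbs1. Of 9 other extracellular antagonists, 3 rose and 2 fell at both times. Nbl1 rose by 1.86 and 1.87, Kcp by 1.19 and 1.73 and Twsg1 by 0.94 and 1.09, while Crim1 fell by 0.92 and 0.91 and Bmper fell by 0.59 and 0.40.

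The response genes were mostly lower where called. Of 7 BMP response genes 3 fell at both times and the other 4 (Msx2, Dlx3, Dlx5 and Sp7) were not called: Hey1 fell by 1.32 (SE 0.100, adjusted p = 1.93e-06) and 1.77, Atoh8 by 1.43 (SE 0.050, adjusted p = 5.77e-09) and 1.67, and Hes1 by 0.38 and 0.44. Hey1 and Hes1 also answer to Notch. Of 11 TGF-beta response genes, 2 rose and 7 fell after 14 days, and 3 rose and 6 fell after 28 days. Among all genes 18.2% were higher and 17.5% lower after 14 days, and 20.4% and 19.5% after 28 days. Acta2 and Tagln, which fell at both times, are on this list and also among the smooth muscle markers above. Sp7 and Eng likewise stand in both a pathway list and a marker list. Ccn1 fell by 1.61 and 1.25, and Snai2 fell by 0.78 and 1.11, while the matrix protein gene Tgfbi rose by 1.02 and 1.33. Among 19 intracellular regulators, 4 rose and 2 fell after 14 days, and 6 rose and 7 fell after 28 days, all by less than 2-fold. The share called was 31.6% after 14 days, near the 35.7% of all genes, and 68.4% after 28 days, against 39.9%. Tab1 rose by 0.40 and 0.48, Pmepa1 rose by 0.38 and 0.39, and Strap fell by 0.25 and 0.30.

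**Figure D4:**
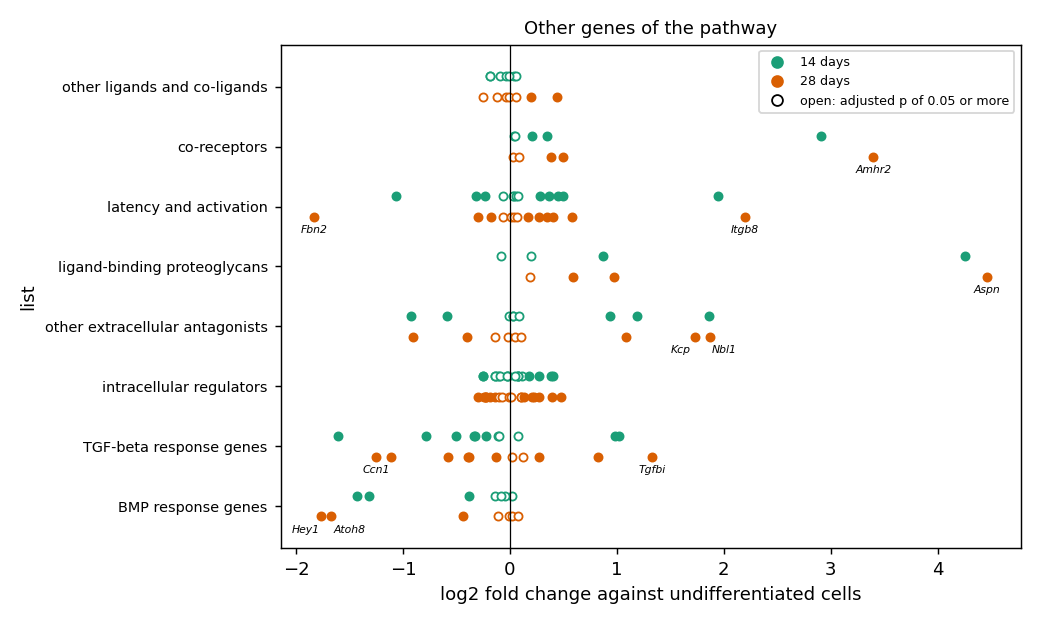
Log2 fold change against undifferentiated cells after 14 days (green) and 28 days (orange) of 75 pathway genes outside the family names, in 8 lists, with called genes filled. Aspn and Amhr2 stand far right, and every filled point of the BMP response list lies left of 0.

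The size of many changes differed when the deposited values were quantile-normalised again. This step gives every array the same distribution, and on centred values it draws the spread of the groups together. It therefore cannot show how far the sizes depend on the scaling of arrays. After this step 29 family genes were called after 14 days and 29 after 28 days. Among all genes 26.2% and 28.5% were called then, against 35.7% and 39.9% with the values as deposited. The log2 change was smaller by over 1.5 times in 16 of the 34 genes called after 14 days and in 17 of the 37 called after 28 days. Ltbp1 then changed by -1.25 and -1.63, Inhba by -1.09 and -0.98, Id4 by -0.82 and -0.63 and Bmp15 by 0.92 and 0.95, all still called. No called change turned its direction, and the fall of Id1 after 14 days was larger, at -1.02.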

How the data were processed

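The deposited values are log2 signals that, per the submitters' processing notes, the authors made with RMA (background correction, quantile normalisation and summary per probe set); base 2 is assumed from the usual scale of RMA. Every one of the 33794 probe sets has its median at 0, so the values were centred by probe set, by a step not given in the sources used here. That a higher value means more RNA is assumed. Exact zeros make up 15.2% to 28.1% of an array. For arrays, their number limits the precision.

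Of the probe sets, 23521 name 1 gene, 1814 several and 8459 none, in the annotation table supplied with the values, and 23328 of the first matched RefSeq genes of GRCm38.p6. Those with 1 gene were averaged per gene, giving 22180 genes, and all members have at least 1 probe set. limma 3.58.1 in R 4.3.3 fitted 1 mean per group over all 9 arrays, with moderated variances (6 residual, 3.81 prior degrees of freedom) and Benjamini-Hochberg adjustment over all genes. Intervals are 95%. The fit was tested on simulated data.

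The members, the roles, the pathway lists and the marker lists (stromal, osteoblast, adipocyte, chondrocyte, macrophage, endothelial, smooth muscle and dividing cells) were chosen with earlier results of these data known. Values on every array are given for genes called with at least 2-fold change or between 14 and 28 days, fit values for the main ligands, receptors, SMADs, Id genes and antagonists, and for each pathway list up to 3 called genes with the largest change after 28 days; other array values were added after they were seen. Promoter windows come from RefSeq for GRCm38.p6. Same-numbered arrays of different groups correlated between -0.139 and 0.068 in their deviations from group means. The main fit used no pairing, and whether the numbers mark a shared culture or batch cannot be read from these correlations. The alternatives were the probe set with the largest variance, genes with 1 probe set, quantile normalisation again, tied genes left out, 2 groups alone, robust variances, an adjusted p under 0.01, limma's treat at 1.5-fold, the replicate number as a block and each array left out in turn.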

Additional observations from a re-analysis of the deposited data

Results flagged for a closer look

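Of the 4 probe sets that name a family gene together with another gene, which the comparisons do not use, 2 were higher after induction than in undifferentiated cells. The probe set shared by Gdf1 and Cers1 had 0.00, -0.01 and 0.16 after 14 days, 0.00, 0.06 and 0.10 after 28 days, and -0.32, -0.44 and -0.30 in undifferentiated cells. Its log2 change was 0.40 (SE 0.061, limma, adjusted p = 0.000577) after 14 days and 0.41 (adjusted p = 0.000468) after 28 days, and which of the 2 genes it reports cannot be told. The probe set shared by Bmpr2 and Gm20272 had a log2 change of 0.21 (adjusted p = 0.0256) after 14 days and 0.13 (adjusted p = 0.149) after 28 days, against 0.25 at both times for the probe set of Bmpr2 alone.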

How the results depend on the processing

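Over 18 alternatives no called change of a family gene reversed, but many of them could not reverse one. The stricter tests, robust variances, tied genes left out, 2 groups alone and the block keep the same differences between group means. The probe-set alternatives alter the values of no family gene but Gdf5. Leaving out an array of the third group does not alter a difference either. Of the calls, 28 of 34 after 14 days, 29 of 37 after 28 days and 5 of 6 between the times held under every alternative that did not tighten the test. Counts moved by over 1.5 times when limma's treat asked for more than a 1.5-fold change: 10 family genes (4 higher, 6 lower) were called after 14 days, 12 (6 higher, 6 lower) after 28 days and 0 between the times, where 0 had an unadjusted p under 0.05, and 15, 15 and 0 other pathway genes (1 at an unadjusted p under 0.05). Of all genes 7.13%, 9.06% and 0.126% were called by treat. At an adjusted p under 0.01, 7 other pathway genes were called between the times in place of 13, against 3.67% of all genes, and leaving out 1 array gave 7 to 13 there: 7 without 14-day array 2, and 8 without 14-day array 1 or without 28-day array 3. The alternatives for other pathway genes were added after seeing the data. With the replicate number as a block, 34, 36 and 8 family genes were called in the 3 comparisons and 35 by the F test. Of all genes 35.4%, 39.3% and 6.27% were called in these 3 comparisons. Acvr2b was lost after 28 days, and Smad9 and Fst were gained between the times. Quantile normalisation again lost Bmp7, Gdf6, Inhbb, Acvr2b and Smad2 after 14 days and Bmp8a, Inhbb, Acvr1, Acvrl1, Acvr2b, Id1, Chrdl1 and Bmp2k after 28 days, and gave 8 calls between the times, against 9.57% of all genes, with Ltbp4 at 0.94 and Id1 at 0.90. On centred values this step draws the spread of the groups together, and its part in these changes was not tested. The centred values leave signal over background unknown, so weakly expressed genes could not be set apart.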

Other observations

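The probe set shared by Paqr3 and Bmp2k moved against the probe set of Bmp2k alone. It had -0.05, 0.05 and -0.06 after 14 days, -0.07, 0.00 and -0.33 after 28 days, and 0.56, 0.59 and 0.35 in undifferentiated cells, a log2 change of -0.52 (SE 0.093, limma, adjusted p = 0.00167) and -0.64 (adjusted p = 0.000412), where Bmp2k alone gave 0.26 and 0.16. The probe set shared by Ltbp2 and D030025P21Rik was not called, with -0.26 (adjusted p = 0.277) after 14 days and -0.01 after 28 days. The 2 probe sets of Gdf5, which the comparisons average, gave 0.00 and 0.13 after 14 days and -0.03 and 0.23 after 28 days, none of them called. The receptor gene Amhr2 rose 7.53-fold after 14 days and 10.6-fold after 28 days, while the gene of its hormone, Amh, had log2 changes of -0.19 and -0.12 that were not called. Junb, listed with the TGF-beta response genes, fell after 14 days (log2 change -0.22, adjusted p = 0.0092) and was higher than in undifferentiated cells after 28 days (0.27, adjusted p = 0.00238), a change between the times of 0.48 (adjusted p = 0.000511).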
